A study of Homo sapiens with 38 samples.

Results

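GDF15, INHBE, INHBA, INHBB, FST and FSTL3 were followed across 15 tables that each set 1 compound beside DMSO in a human breast cancer cell line. These 6 genes, of 24463 listed in any table, encode stress-induced or activin-type secreted ligands and their inhibitors. They were chosen on values measured in these tables, so their differences from DMSO are a description, and the counts of calls against DMSO given further on are for reference and support nothing. All 6 were listed in 11 tables, and FST was not listed in the T47D-TR tables of C24, MS8815, MS8815-N and EPZ-6438.

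The tested groups were T47D, T47D-TR and BT-549 cells given 2.5 uM MS177, 2.5 uM of its negative controls MS177-N1 or MS177-N2, or 2.5 uM C24, each for 48 h, with 0.125% DMSO as vehicle. T47D-TR cells were also given 2.5 uM MS8815, its negative control MS8815-N or EPZ-6438 for 30 h, with 0.05% DMSO as vehicle. MS177 and MS8815 are PROTACs, molecules that bring a target protein, here the histone methyltransferase EZH2, to a ubiquitin ligase for degradation. C24 and EPZ-6438 block the methyltransferase activity of EZH2. The 19 groups held 2 samples each by the labels, 38 in all, and every culture had insulin and fetal bovine serum. The labels do not say how T47D-TR was derived from T47D, nor whether the 2 samples of a group were separate cultures, so spreads and p-values cover the spread between these samples, which may be technical.

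GDF15 is a distant relative of the TGF-beta ligands that cells secrete under stress. It acts through GFRAL, a receptor of the hindbrain, and GDF15 is a known target of the stress transcription factors ATF4 and DDIT3 and of p53. INHBA, INHBB and INHBE encode the beta subunits whose dimers are the activins A, B and E. Activins A and B bind type II activin receptors and signal through SMAD2 and SMAD3, and INHBE is best known from liver. FST (follistatin) and FSTL3 (follistatin-like 3) wrap around activins and keep them from their receptors.

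T47D and T47D-TR DMSO libraries expressed the luminal markers ESR1 (4018 to 5083 normalized counts in T47D, 1442 to 1655 in T47D-TR at 48 h) and EPCAM, and BT-549 DMSO libraries expressed the mesenchymal markers VIM (76622 to 81322) and ZEB1 (1527 to 1721) with ESR1 at 1.06 to 8.32 and EPCAM not listed. Other luminal markers were present in BT-549, with GATA3 at 5961 to 6524, KRT18 at 18198 to 20271 and CDH1 at 606 to 677. The luminal marker PGR had 13016 to 16559 in T47D and 272 to 292 in T47D-TR at 48 h. Of the mesenchymal markers, FN1 had 736 to 980 and TWIST1 62.7 to 84.7 in T47D, where VIM, ZEB1, CDH2 and SPARC reached at most 100.03. PECAM1 of endothelium and LYZ of myeloid cells were listed in no table, and PTPRC of leukocytes reached at most 5.28 normalized counts. COL1A1, a collagen gene typical of fibroblasts, had 8608 to 10361 in BT-549 and 2216 to 2318.5 in T47D. T47D and BT-549 libraries held 32.1 M to 49.9 M reads over the listed genes, where 1 read was worth 0.777 to 1.17 normalized counts. T47D-TR values did not resolve into whole reads, so how deeply those libraries were sequenced is unknown. Levels below are normalized counts, brought to 1 scale within a line and time through the DMSO libraries that the tables share. They are compared between groups and never between genes, because gene lengths were not divided out.

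Some libraries stand apart. The T47D table of MS177-N1 held 1 library of that compound, because its second treated column carried the name of MS177-N2 and matched replicate 2 of MS177-N2 at 100% of 17724 shared genes. The 2 T47D MS177 libraries correlated at r = 0.913 across 18573 genes, against r = 0.987 for the DMSO pair across 17979 genes, both on log2(normalized count + 1). Replicate 2 of MS8815-N in T47D-TR had 44.3% of genes at the lowest value of its table, and its pair correlated at r = 0.770. Results that rest on these libraries are given for each library or with and without it.

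On RefSeq GRCh38.p14, GDF15 (19, 18386158 to 18389176) and FSTL3 (19, 676392 to 683385) lie on chromosome 19. INHBE lies on chromosome 12 (57455307 to 57458025), INHBA on chromosome 7 (41685114 to 41705406), INHBB on chromosome 2 (120346136 to 120351803) and FST on chromosome 5 (53480629 to 53487134). All 6 are protein-coding. INHBA shares exon sequence with the antisense gene INHBA-AS1, and no source used here says that reads were counted by strand, so reads of this pair cannot be told apart. GDF15 contains the microRNA gene MIR3189 outside its exons. Promoter sequences, from 250 bases before to 50 bases after the start, were found in the RefSeq table for 5 of the 6 genes. INHBE had no entry. Those of GDF15 and FSTL3, which were higher with MS177 than with DMSO in all 3 lines, are shown beside that of INHBB, which was not, in lower case 5′ to 3′ on the gene's strand with matches to the GC box GGGCGG on either strand in capitals.
GDF15 (chr19:18385908-18386207, plus strand): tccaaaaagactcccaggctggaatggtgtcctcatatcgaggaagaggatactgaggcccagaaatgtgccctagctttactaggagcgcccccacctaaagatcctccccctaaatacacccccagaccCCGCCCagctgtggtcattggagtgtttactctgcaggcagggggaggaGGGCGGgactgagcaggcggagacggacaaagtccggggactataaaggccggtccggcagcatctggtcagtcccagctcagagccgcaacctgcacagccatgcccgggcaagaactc
FSTL3 (chr19:676142-676441, plus strand): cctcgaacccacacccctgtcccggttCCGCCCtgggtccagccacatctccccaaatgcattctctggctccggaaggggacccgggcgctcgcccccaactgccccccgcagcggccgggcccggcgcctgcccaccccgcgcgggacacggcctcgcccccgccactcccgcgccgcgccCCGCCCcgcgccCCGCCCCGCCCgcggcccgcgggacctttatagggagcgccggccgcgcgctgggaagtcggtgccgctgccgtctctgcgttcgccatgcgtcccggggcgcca
INHBB (chr2:120345886-120346185, plus strand): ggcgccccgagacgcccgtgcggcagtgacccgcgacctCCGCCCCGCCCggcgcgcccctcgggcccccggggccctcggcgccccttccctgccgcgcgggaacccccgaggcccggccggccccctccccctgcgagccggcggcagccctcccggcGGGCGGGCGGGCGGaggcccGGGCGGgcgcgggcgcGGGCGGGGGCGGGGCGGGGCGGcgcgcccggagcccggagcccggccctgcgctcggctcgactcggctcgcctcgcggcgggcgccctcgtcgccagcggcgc

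The GC box occurred 2 times in the GDF15 window, 4 times in FSTL3 and 10 times in INHBB, where matches overlap, and 45.0% of 35116 promoters in the table held at least 1. FST had 3 matches and INHBA none. The INHBA window (41703041 to 41703340, minus strand) lies inside its locus, which ends at 41705406, so it is not at the 5′ end of that locus. The windows held 59.3% G and C in GDF15, 78.7% in FSTL3, 88.7% in INHBB, 63.7% in FST and 43.3% in INHBA, against a median of 58.7% over all promoters. The core TGATGNAA that C/EBP and ATF proteins share was in none of the 5 windows and in 3.62% of all promoters. The cyclic AMP response element TGACGTCA (1.85% of promoters), the ER stress response element (0.0769%) and the p53 half-site (6.63%) were also in none of the 5. The AP-1 motif TGANTCA (7.71% of promoters) had 1 match, in FST at base -160 from the start. Both strands were searched, and a window without these letters says nothing of sites elsewhere.

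GDF15 was present in every group and had its highest level with a degrader in each line. In BT-549 it had 29036 and 35086 normalized counts with MS177, against 127 and 134 with DMSO. The ratio of means, 246-fold, was the highest of its 15 comparisons. In T47D it had 9373 and 6297 with MS177, against 188 and 261 with DMSO, a ratio of 34.9. In T47D-TR it had 5278 and 5322 with MS177, against 157 and 153 with DMSO, a ratio of 34.2. The degrader libraries lay far above all DMSO libraries in each line, also for either T47D MS177 library on its own. Counts from a whole culture cannot tell more expressing cells from more RNA per cell.

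MS8815 in T47D-TR gave GDF15 levels of 3688 and 3678, against 77.8 and 86.3 with DMSO at 30 h, a ratio of 44.9. GDF15 was far lower with the other compounds. In BT-549 it had 292 and 330 with MS177-N2, 235 and 233 with C24 and 146 and 141 with MS177-N1, none overlapping the DMSO libraries. In T47D-TR at 48 h the 3 other compounds lay between 202 and 246, all above DMSO and overlapping one another. In T47D the negative controls lay between 208 and 216, inside the DMSO range, and C24 at 257 and 299 overlapped it. At 30 h MS8815-N had 187 and 176 and EPZ-6438 had 104 and 196, above the DMSO libraries.

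**Figure D1:**
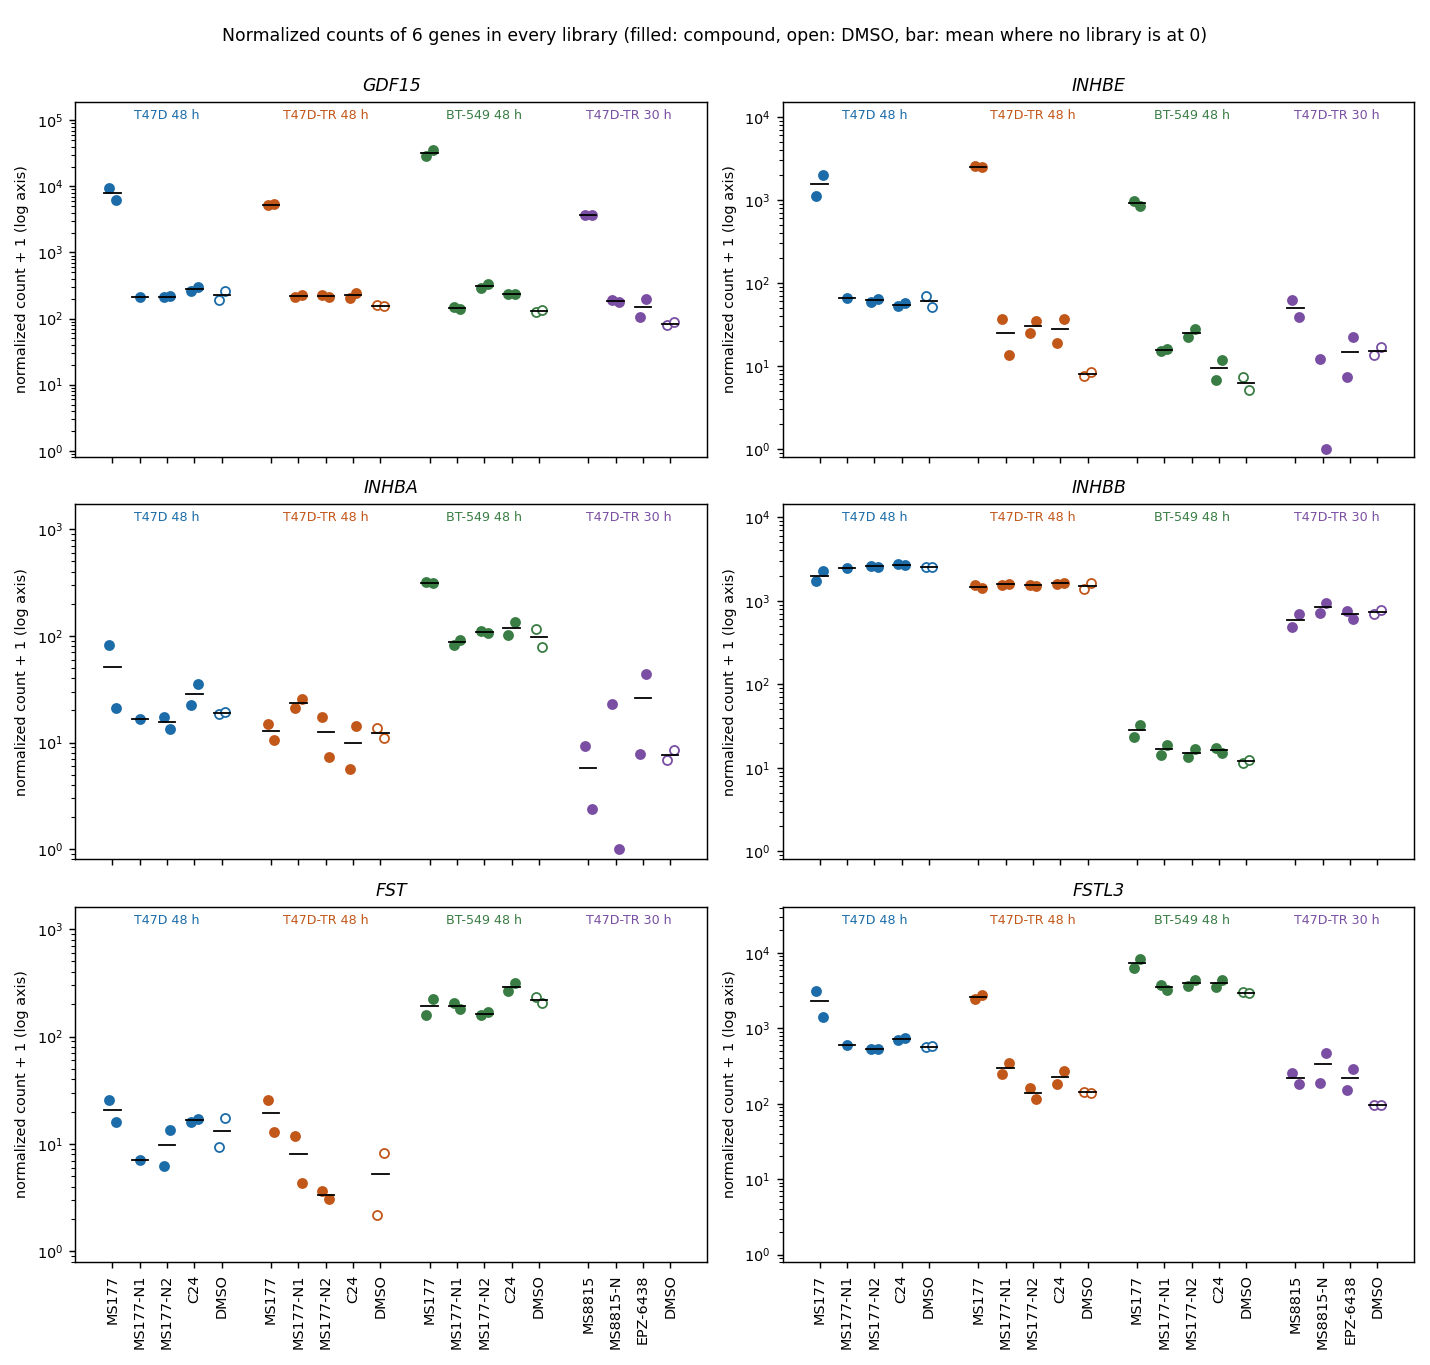
Normalized counts plus 1 (log axis) of each gene in every library, by compound and line (filled circles) with DMSO at the right of each block (open circles), bars at group means where no library is at 0. GDF15 stands between 3678 and 35086 with MS177 or MS8815 and between 77.8 and 330 in all other libraries.

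INHBE, the activin E subunit, was scarce without a degrader and abundant with MS177. In T47D-TR it had 2558 and 2465 with MS177, against 6.63 and 7.53 with DMSO. The ratio of 355 rests on a DMSO level under 10 normalized counts and is therefore imprecise. In BT-549 it had 965 and 849 with MS177, against 6.34 and 4.16 with DMSO, a ratio of 173. In T47D, where DMSO cells already had 67.7 and 51.0, MS177 gave 1117 and 1979, a ratio of 26.1. The MS177 libraries lay above all others of their line in each case.

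With MS8815 INHBE had 60.6 and 37.5, against 12.4 and 16.1 with DMSO at 30 h, a ratio of 3.44. Times differ between these degraders, so their levels stand side by side without a comparison. Low levels with the other compounds lay above DMSO in T47D-TR, with 18.0 and 36.2 for C24, 36.1 and 12.4 for MS177-N1 and 24.03 and 33.9 for MS177-N2. In BT-549 MS177-N2 gave 21.4 and 26.7 and MS177-N1 14.3 and 15.02, and C24 at 5.81 and 10.98 overlapped DMSO. INHBE was listed at 0 in replicate 2 of MS8815-N and at 11.1 in replicate 1.

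INHBA, the activin A subunit, had its clearest difference in BT-549. There it had 322 and 311 with MS177, against 116 and 78.0 with DMSO, a ratio of 3.26. The other BT-549 compounds lay between 81.1 and 135 and overlapped DMSO. In T47D the MS177 libraries had 80.9 and 20.1, against 17.6 and 18.4 with DMSO, so most of the ratio of 2.81 comes from 1 library. In T47D-TR at 48 h, INHBA had 13.9 and 9.63 with MS177, against 12.6 and 9.94 with DMSO, and MS177-N1 lay above both at 20.3 and 24.6. At 30 h it had 8.20 and 1.397 with MS8815 and 6.83 and 43.4 with EPZ-6438, against 5.91 and 7.45 with DMSO, levels too low and too far apart to order.

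INHBB, the activin B subunit, was abundant in the luminal lines and changed little there. T47D-TR had 1541 and 1416 with MS177, against 1393 and 1613 with DMSO, a ratio of 0.984. T47D had 1702 and 2273 with MS177, against 2563 and 2531 with DMSO, a ratio of 0.780 without overlap. With the other 48 h compounds INHBB lay between 2438 and 2720.3 in T47D and between 1520 and 1648 in T47D-TR. At 30 h it had 483 and 691 with MS8815, against 690 and 772 with DMSO, and the higher MS8815 library lay just above the lower DMSO library. BT-549 had little INHBB, 22.4 and 31.9 with MS177, against 10.6 and 11.4 with DMSO, and its 3 other compounds lay between 12.4 and 17.8, all above DMSO.

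FST, follistatin itself, was mainly a gene of BT-549 in these data and moved little there. It had 157 and 225 with MS177, against 233 and 206 with DMSO, a ratio of 0.869 with overlapping ranges. C24 gave the highest FST level of that line, 263 and 315, and MS177-N2 the lowest mean, from 157 and 168. T47D levels lay between 5.21 and 24.6 in all groups, with 24.6 and 15.1 for MS177, against 8.36 and 16.3 for DMSO. In T47D-TR FST had 24.7 and 12.04 with MS177, against 1.19 and 7.33 with DMSO, low counts whose ratio of 4.32 is imprecise.

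FSTL3 was higher with MS177 in every line. In T47D-TR it had 2426 and 2727 with MS177, against 144 and 138 with DMSO, a ratio of 18.3 that was the highest among its 15 comparisons. In T47D it had 3130.5 and 1412 with MS177, against 559 and 585 with DMSO, a ratio of 3.97. The T47D MS177 libraries differed from each other by more than any other pair of that line, yet both lay above DMSO. In BT-549, which had the most FSTL3 of the lines, it had 6341 and 8254 with MS177, against 3016 and 2947 with DMSO, a ratio of 2.45.

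Smaller FSTL3 differences accompanied other compounds. T47D-TR cells had 247 and 343 with MS177-N1, 182 and 268 with C24 and 158 and 116 with MS177-N2, with MS177-N1 and C24 above the DMSO libraries and MS177-N2 overlapping them. At 30 h MS8815 gave 258 and 182, EPZ-6438 151 and 290 and MS8815-N 187 and 475, against 95.7 and 96.7 with DMSO. These 3 compounds overlapped one another, and the 475 came from the MS8815-N library that stands apart. In BT-549 MS177-N2 gave 3688 and 4326, C24 3544 and 4343 and MS177-N1 3796 and 3229, each above DMSO. In T47D FSTL3 had 690.1 and 738 with C24, above DMSO, and 525 and 530 with MS177-N2, below it.

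**Figure D2:**
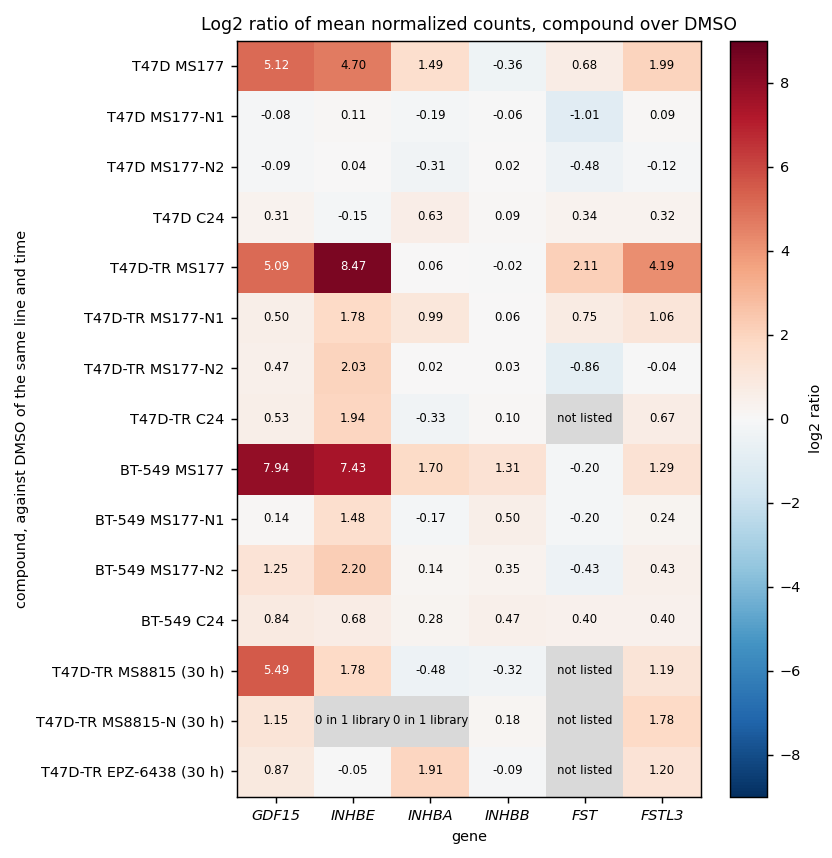
Log2 ratio of mean normalized counts for each compound (rows, grouped by line) over DMSO of the same line and time, for each gene (columns), with grey cells where FST was not listed or a library was listed at 0. GDF15 had log2 ratios of 5.12, 5.09, 7.94 and 5.49 with the degraders in T47D, T47D-TR, BT-549 and T47D-TR at 30 h, and INHBB had 1.31 with MS177 in BT-549 against -0.36 and -0.02 in T47D and T47D-TR.

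For reference, limma on the deposited log2 values put 10 of 55 combinations of gene and table that passed its filter past an adjusted p of 0.05, all higher with the compound. These contrasts chose the genes, so nothing is read from that count. With MS177 it was 4 of 5 in BT-549, where 27.3% of all tested genes passed, 3 of 4 in T47D-TR, where 62.5% passed, and 0 of 6 in T47D, where 0% of 18146 genes passed although 3247 had an unadjusted p under 0.05. With MS8815 it was 1 of 4, GDF15, and 6.25% of all genes passed. FSTL3 passed with MS177-N1 in T47D-TR (27.5% of all genes) and GDF15 with MS177-N2 in BT-549 (3.42%). These shares of all genes depend on the fit, and were 0.0333% and 0.606% when all libraries of the line and time were fitted together. No member passed with MS177-N2 or C24 in T47D-TR (0.175% and 0.00851% of all genes), with C24 or MS177-N1 in BT-549 (0.134% and 0%), in T47D with C24 (0.847%), the negative control MS177-N1 (0.179%) or MS177-N2 (0%), or with EPZ-6438 or MS8815-N (0% each). In the tables at 0%, limma gave an unadjusted p under 0.05 to 309 genes for MS177-N1 in BT-549, 522 for MS177-N2 in T47D, 157 for EPZ-6438 and 289 for MS8815-N. Up to 4 members of a table lay below the filter. INHBE passed the filter in BT-549 and T47D-TR through its MS177 libraries alone, so it could be called only higher there. With 1 library left out the T47D-TR count at 48 h, 4 over its 4 tables, could fall and those of T47D and of 30 h could rise. Counts over all genes changed too. Such fits leave 1 library in a group, so their counts are not read.

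The degraders were next set against the compounds given at the same dose and time, which asks whether a response is shared by the negative controls or the enzyme inhibitors. All 21 pairs within a line and time were tested with limma on log2(normalized count + 1), with Benjamini-Hochberg adjustment over all tested genes of a pair. The libraries are those in which the genes were chosen, so the p-values describe the size of a difference beside the spread and are no independent evidence. GDF15 differed between the degrader and every other compound of its line and time, 11 of 11 pairs. Over all members, 32 of 61 combinations passed in the pairs with a degrader, where 0.0574% to 50.7% of all genes of a pair passed, and 2 of 56 in the other 10 pairs, where 1.00% of all tests passed.

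GDF15 was higher with MS177 than with MS177-N1 by 7.79 in BT-549 (95% interval 7.49 to 8.09, limma adjusted p = 5.55e-09), by 4.59 in T47D-TR (4.27 to 4.91, adjusted p = 2.96e-07) and by 5.17 in T47D (4.40 to 5.94, adjusted p = 0.00356), all on the log2 scale. MS177-N1 in T47D is 1 library, so each T47D test against it takes its spread from the other groups and assumes that this library varies like them. Against MS177-N2 the GDF15 differences were 6.68 in BT-549, 4.62 in T47D-TR and 5.17 in T47D. Against C24 they were 7.09, 4.57 and 4.79 in the same order. In T47D the GDF15 calls against MS177-N2 and C24 were lost with the compared libraries alone (limma adjusted p = 0.149 and 0.124). With MS8815 GDF15 was higher than with MS8815-N by 4.34 (3.41 to 5.26, adjusted p = 0.0230, limma) and than with EPZ-6438 by 4.68 (3.75 to 5.61, adjusted p = 0.0213, limma). Without the MS8815-N library that stands apart these were 4.29 (adjusted p = 0.0253, limma) and 4.68 (adjusted p = 0.00655, limma). Both 30 h calls were lost on the deposited log2 values and without either MS8815 library. The call against EPZ-6438 was also lost without either EPZ-6438 library.

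Of all genes tested, 8.56%, 16.7% and 19.3% passed in T47D when MS177 was set against MS177-N1, against MS177-N2 and against C24, and 2, 3 and 3 of 6 members did. These 8 T47D calls were 11 and 17 without replicate 1 or 2 of MS177 and 4 without either replicate of the other compound. In T47D-TR 50.7%, 46.3% and 48.1% of genes passed in the same 3 pairs, and 3 of 5 members did in each. In BT-549 33.1%, 37.2% and 35.7% passed, and 4, 4 and 5 of 6 members did. For MS8815 0.0574% of genes passed against MS8815-N and 0.108% against EPZ-6438, and in both GDF15 was the 1 member of 5. Both shares come from a fit with the MS8815-N library that stands apart, and both were higher without it.

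INHBE was higher with MS177 than with each of the 3 other compounds in all 3 lines, with MS177-N1 in T47D resting on 1 library. The differences were 6.41 to 6.81 in T47D-TR, 5.18 to 6.65 in BT-549 and 4.52 to 4.77 in T47D on the log2 scale, and the highest of the 9 adjusted p was 0.00525 (limma). In T47D the INHBE calls against MS177-N2 and C24 were lost with the compared libraries alone (limma adjusted p = 0.149 and 0.124). For MS8815 the interval of the INHBE difference was wide, 0.32 to 7.30 against MS8815-N (difference 3.81, adjusted p = 0.346, limma) and -1.56 to 5.41 against EPZ-6438 (difference 1.92, adjusted p = 0.967, limma). Without the library that stands apart the first was 2.01 (0.09 to 3.93) and the second 1.92 (0.36 to 3.49). That fit leaves 1 library of MS8815-N, and neither difference passed the adjusted threshold in it.

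FSTL3 was higher with MS177 than with the other compounds by 3.14 to 4.24 in T47D-TR and by 0.86 to 1.05 in BT-549, with adjusted p of at most 0.00356 (limma) in these 6 pairs. In T47D it was higher than with MS177-N2 by 1.99 (1.13 to 2.86, adjusted p = 0.0172, limma) and than with C24 by 1.56 (0.69 to 2.42, adjusted p = 0.0314, limma), and the difference from MS177-N1 of 1.79 (0.73 to 2.85) had an adjusted p of 0.0592 (limma). Both T47D calls were lost with the compared libraries alone and without either replicate of the other compound, with adjusted p of up to 0.196 against MS177-N2 and 0.213 against C24 (limma). MS8815 and EPZ-6438 differed by 0.05 in FSTL3 (-1.36 to 1.45, not past the threshold). Without the MS8815-N library that stands apart the interval was -0.88 to 0.98. Both intervals leave room for differences in either direction.

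INHBA was higher with MS177 in BT-549 by 1.43 to 1.87 (limma adjusted p of at most 0.00123 in 3 pairs). In the 6 pairs of T47D and T47D-TR its intervals all held 0, the widest running from -0.63 to 3.24 against MS177-N1 in T47D. INHBB passed in no pair. Its intervals were narrow in T47D-TR, from -0.38 to 0.20 over the 3 pairs, and lay between 0.01 and 1.56 against C24 in BT-549 (difference 0.78, adjusted p = 0.105, limma). FST was lower with MS177 than with C24 in BT-549, by a log2 difference of -0.61 (-1.06 to -0.17, adjusted p = 0.0368, limma), a call lost in 6 of 10 alternative fits.

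**Figure D3:**
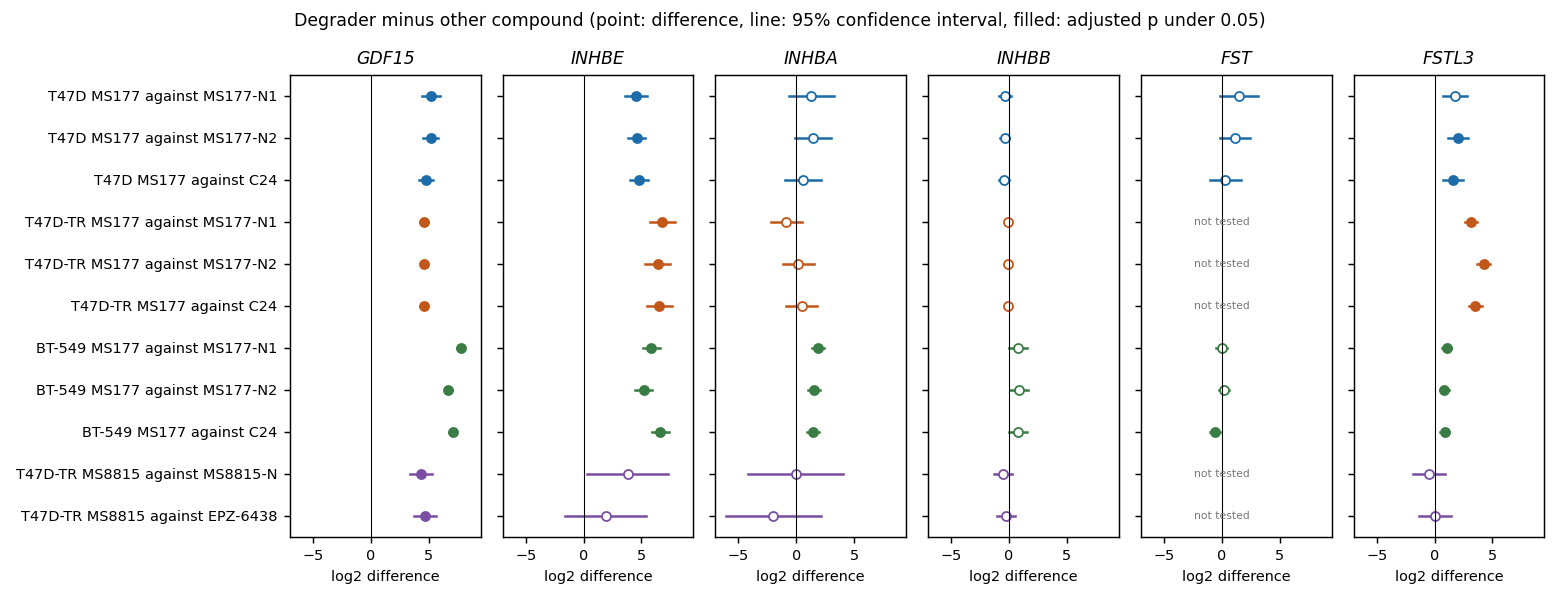
Log2 difference of normalized counts plus 1 (x axis) between a degrader and each other compound of its line and time (rows) for each gene (panels), with 95% confidence intervals, filled where the adjusted p was under 0.05. GDF15 lies between 4.34 and 7.79 in all 11 rows, and the intervals of INHBE and INHBA at 30 h are the widest.

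Among the negative controls and inhibitors, 2 member differences passed. GDF15 was lower with MS177-N1 than with MS177-N2 in BT-549 by a log2 difference of -1.11 (-1.41 to -0.81, adjusted p = 0.00901, limma), in a pair where 0.349% of all genes passed. FSTL3 was higher with MS177-N1 than with MS177-N2 in T47D-TR by 1.098 (0.55 to 1.65, adjusted p = 0.0453, limma), in a pair where 9.18% of all genes passed. With the second compound of each pair, here MS177-N2, short of either replicate, 0 members passed in the other pairs of these lines by the same limma test. Between MS177-N1 and MS177-N2 in T47D-TR, GDF15 differed by 0.03, with an interval of -0.29 to 0.35.

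Across the 15 comparisons, the genes whose log2 response was most like that of GDF15 were TRIB3 (r = 0.9749), CYP1A1 (r = 0.958) and CD55 (r = 0.956). They were ranked among 11516 genes with a group mean of at least 100 normalized counts. The comparisons share DMSO libraries within a line and time, and the 4 with a degrader spread the points, so these r values are descriptions. TRIB3, a pseudokinase of the stress response, had log2 differences of 4.70 in BT-549, 3.03 in T47D-TR and 2.78 in T47D with MS177 and of 2.10 with MS8815. INHBE responses correlated with those of GDF15 at r = 0.8001, rank 208, and FSTL3 responses at r = 0.619, rank 1093.

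The nearest genes to INHBE were EIF3D (r = 0.959), PPP6R1 (r = 0.950) and IL20RB (r = 0.950), and those to FSTL3 were ACOT9 (r = 0.955), TYW5 (r = 0.937) and DUSP11 (r = 0.921). INHBA was nearest to SIRT5 (r = 0.843), KRT8 (r = 0.839) and ADIRF (r = 0.826). INHBB was nearest to SUCLG2 (r = 0.896), CLDN1 (r = 0.893) and FBXO45 (r = 0.887). FST, over 11 comparisons, was nearest to STK10 (r = 0.915), PHLDA2 (r = 0.909) and DSEL (r = 0.905), and FSTL3 was rank 28 for it (r = 0.879).

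**Figure D4:**
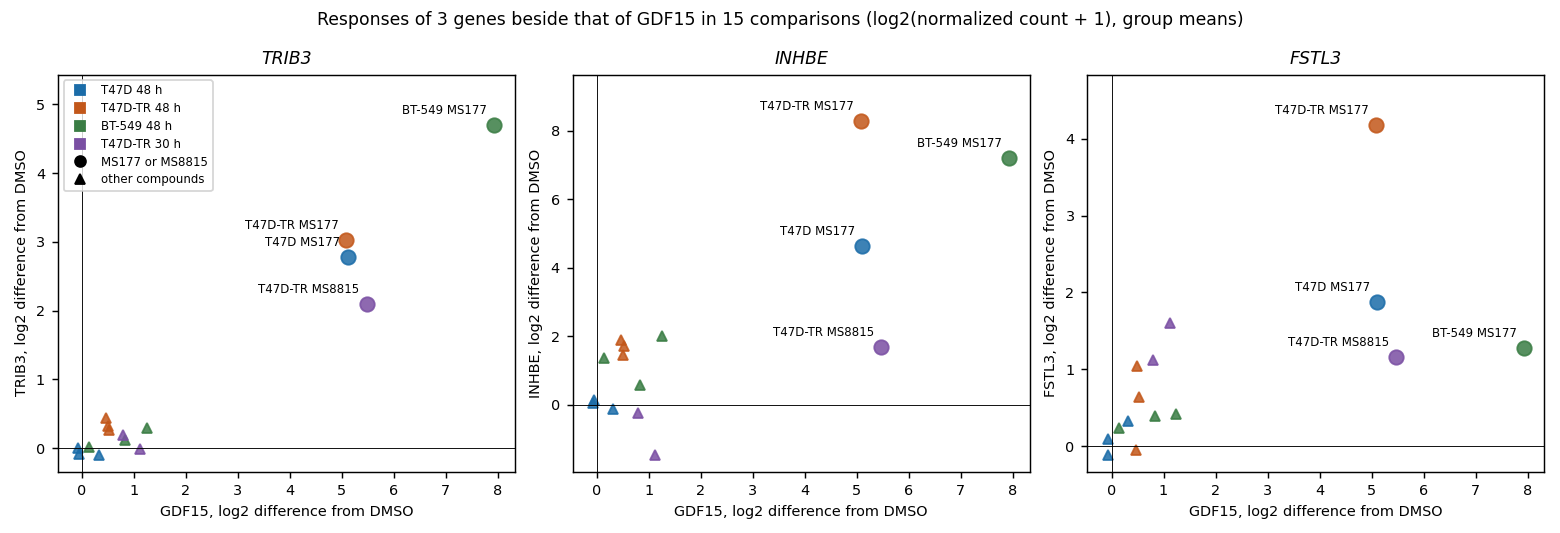
Log2 difference from DMSO of TRIB3, INHBE and FSTL3 (y axes) beside that of GDF15 (x axes), 1 point for each of 15 comparisons, circles for MS177 and MS8815 and triangles for other compounds. TRIB3 and GDF15 are both highest in BT-549 (4.70 for TRIB3), while FSTL3 is highest in T47D-TR with MS177 and INHBE is low with MS8815.

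The pathway around these genes was then followed in 6 lists that leave the members out, with limma on the deposited log2 values against DMSO. The list of other ligands also holds BMP1, which encodes a protease and not a ligand of the family, so counts of that list can include it. For the transcription factors of stress and other stress-induced secreted factors, 18 of 24 tested genes rose and 5 fell with MS177 in T47D-TR, where 31.1% of all genes rose and 31.4% fell. ADM, with means of 313 with MS177 and 47.6 with DMSO, passed the filter through its MS177 libraries alone and could be called only higher. AREG, a ligand of the EGF receptor, had 8987 ± 1258 normalized counts with MS177 and 134 ± 19.1 with DMSO (SD, n = 2 each). DDIT3, a transcription factor of the integrated stress response, had 8508 ± 716 with MS177 and 313 ± 10.8 with DMSO. STC2, a secreted glycoprotein, fell to 2058 ± 124 with MS177, against 8778 ± 544 with DMSO, and STC1 fell to 38.4 ± 0.29, against 138 ± 23.6. STC1 passed the filter through its DMSO libraries alone, so it could be called only lower. The median log2 difference of the list was 0.89, against -0.0034 for all tested genes.

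In BT-549 17 of 28 tested genes of that list rose and 4 fell with MS177, where 12.9% of all genes rose and 14.4% fell. FGF21, with means of 69.9 with MS177 and 1.06 with DMSO, passed the filter through its MS177 libraries alone and could be called only higher. IL6, an inflammatory cytokine, had 3861 ± 309 with MS177 and 126 ± 41.4 with DMSO. NUPR1, a stress-induced nuclear protein, had 5709 ± 1389.5 with MS177 and 248 ± 59.8 with DMSO. TFEB, a regulator of lysosomal genes, fell to 41.0 ± 7.74, against 163 ± 24.8, and MANF, an ER stress-induced secreted factor, fell to 3416 ± 448, against 6499 ± 1147. STC2 rose in this line, to 22519 ± 1117 with MS177, against 3701 ± 170.4 with DMSO. The list median was 0.94, against 0.01 for all genes.

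With MS8815 in T47D-TR 8 of 25 tested genes of the stress list rose, where 3.27% of all genes rose and 2.98% fell. DDIT3 had 3418 ± 75.0 with MS8815 and 191 ± 6.96 with DMSO, and ATF3, another stress transcription factor, had 1387 ± 317 and 149 ± 8.45. The list median was 0.53, against 0.0040 for all genes. From the other lists 1 of 9 ligands, 1 of 11 receptors, 2 of 12 extracellular binders and 3 of 20 SMADs and regulators fell. In a fit of all 30 h libraries 1 pathway gene passed instead of 15, and 0.0789% of all genes passed instead of 6.25%. With 1 library left out both counts moved together, up or down. Such fits leave 1 library in a group, so their counts are not read. Among the genes of these lists that fell were the ligand TGFB3 (204 ± 25.1 with MS8815, 591 ± 27.3 with DMSO), the inhibitory SMAD7 (59.4 ± 0.47 and 208 ± 0.67) and PMEPA1, a feedback inhibitor of TGF-beta signaling (155 ± 8.99 and 502 ± 13.0).

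In T47D no pathway gene passed with MS177 by that limma test, where 3247 of all genes had an unadjusted p under 0.05. With 1 library left out more genes passed, among pathway genes and all genes alike. Such fits leave 1 library in a group, so their counts are not read. A fit of all T47D libraries together, added after the separation of the MS177 pair was seen, called 8.13% of 17341 genes higher and 10.0% lower. In it 11 of 27 stress list genes were higher and 1 lower, with a list median of 0.71, against -0.03 for all genes. DDIT3 (log2 difference 5.33, limma adjusted p = 0.00309) and ATF3 (3.45, limma adjusted p = 0.00111) were among them, and STC2 was the 1 lower (-1.34, limma adjusted p = 0.00856). DDIT3 had 26304 ± 19616 with MS177 in T47D, so its 2 libraries differed widely. In the same fit 6 of 15 SMAD target genes were higher and 1 lower, with a list median of 0.87. The list of other TGF-beta family ligands had 3 of 18 higher, among them the protease gene BMP1, and 3 lower. Receptors had 0 of 14 higher and 3 lower. Extracellular binders had 1 of 20 higher and 4 lower, and SMADs and regulators 3 of 21 higher and 2 lower.

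Counts of the remaining lists are to be read beside all tested genes, of which 31.1% rose and 31.4% fell with MS177 in T47D-TR and 12.9% rose and 14.4% fell in BT-549. Of 7 tested other ligands of the TGF-beta family, 2 rose and 4 fell with MS177 in T47D-TR. TGFB2 had 206 ± 27.0 with MS177 and 20.1 ± 5.48 with DMSO, BMP7 281 ± 17.2 and 187 ± 16.4, and BMP4 834 ± 69.5 and 1591 ± 9.19. TGFB2 passed the filter through its MS177 libraries alone, so it could be called only higher. In BT-549 3 of 16 rose and 4 fell. BMP6 had 492 ± 14.7 with MS177 and 211 ± 14.7 with DMSO, and BMP2 had 355 ± 28.8 and 161 ± 21.8. TGFB3 fell to 56.5 ± 10.0, against 270 ± 12.6, and BMP7 fell to 583 ± 15.1, against 1479 ± 5.21. BMP7 thus rose in T47D-TR and fell in BT-549, and that difference was not tested.

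Of 11 tested receptors and co-receptors, 1 rose and 5 fell with MS177 in T47D-TR, where 31.4% of all genes fell. TGFBR2, the type II TGF-beta receptor, rose to 117 ± 8.64, against 3.88 ± 0.35 with DMSO, a level near the floor. It passed the filter through its MS177 libraries alone, so it could be called only higher. BMPR1A, a type I BMP receptor, fell to 747 ± 44.5, against 1861 ± 140.2. ENG, a TGF-beta co-receptor, also fell, by a log2 difference of -0.61 ± 0.07 (SE). In BT-549 3 of 12 rose and 2 fell, among them ACVR2B, a type II activin receptor, with 389 ± 83.1 with MS177 and 164 ± 25.6 with DMSO, and TGFBR3, a co-receptor that binds inhibins, with 160 ± 6.79 and 775 ± 50.7. GFRAL, the receptor of GDF15, was listed in none of the 15 tables.

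Of the extracellular binders and processing genes, 1 of 12 rose and 9 fell with MS177 in T47D-TR, and 2 of 14 rose and 7 fell in BT-549, where 31.4% and 14.4% of all genes fell. THBS1, which activates latent TGF-beta, fell in T47D-TR to 2716 ± 309, against 10331 ± 1207, and LTBP1, which tethers latent TGF-beta to the matrix, fell to 557 ± 14.6, against 2018 ± 57.2. FSTL1, a follistatin-related protein, was the 1 riser there, with 1333 ± 142 and 687 ± 167. In BT-549 the BMP antagonist NOG fell to 241 ± 67.9, against 654 ± 33.9, and BAMBI, a decoy receptor, fell to 2231 ± 160, against 5058 ± 294. LTBP1 rose in BT-549, to 606 ± 21.9, against 417 ± 28.0. List medians were -0.71 in T47D-TR and -0.55 in BT-549.

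Of 19 tested SMADs and regulators, 8 rose and 4 fell with MS177 in T47D-TR, and 5 rose and 4 fell in BT-549, beside 31.1% and 12.9% of all genes that rose. The co-repressor TGIF1 rose in both, to 874 ± 19.0 with MS177, against 286 ± 7.87 with DMSO, in T47D-TR and to 2506 ± 157, against 898 ± 3.22, in BT-549. PMEPA1 rose in T47D-TR, to 1768 ± 153, against 566 ± 57.1, and SKIL, a SMAD co-repressor, rose in BT-549, to 2061 ± 339.5, against 677 ± 113. Of the SMAD target genes, 4 of 8 rose and 1 fell in T47D-TR, and 4 of 20 rose and 6 fell in BT-549, with list medians of 0.11 and -0.15. JUNB rose in T47D-TR, to 3938 ± 91.2, against 1199 ± 39.2, and HEY1 in BT-549, to 612 ± 41.4, against 50.3 ± 5.37. FN1 fell in T47D-TR, to 56.3 ± 0.33, against 275 ± 17.6, and SNAI2 and ID4 fell in BT-549. FN1 passed the filter through its DMSO libraries alone, so it could be called only lower.

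**Figure D5:**
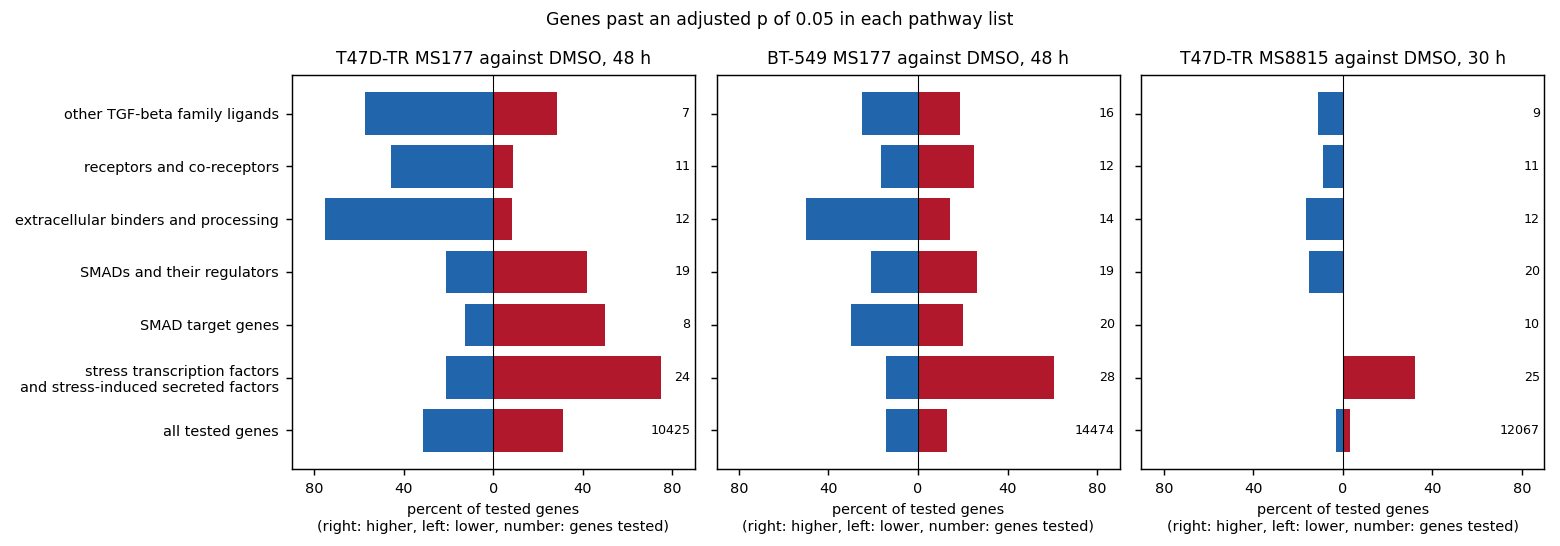
Percent of tested genes of each list, and of all genes, that were higher (right, red) or lower (left, blue) than DMSO past an adjusted p of 0.05, with the number tested at the right edge. The stress list extends to the right in all 3 panels (18 of 24, 17 of 28 and 8 of 25 genes), and the extracellular binders extend to the left with MS177.

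Among the negative controls and inhibitors, MS177-N1 in T47D-TR had 5 of 23 tested stress genes higher and 4 lower, beside 27.5% of all genes past the threshold in either direction. It had 2 of 8 SMAD target genes higher and 2 lower, and 1 of 12 extracellular binders higher and 3 lower. It also had 2 of 9 receptors and 4 of 19 SMADs and regulators lower, and 0 of 7 other ligands past the threshold. In a fit of all 48 h libraries of that line 0.0333% of all genes passed with MS177-N1. MS177-N2 in BT-549 had 2 of 27 stress genes higher, beside 2.05% of all genes. It also had 3 of 19 SMAD target genes, 2 of 15 extracellular binders and 1 of 12 receptors higher, and 0 of 16 other ligands and 0 of 19 SMADs and regulators. C24 in T47D had 1 of 9 other ligands and 1 of 10 SMAD target genes higher, beside 0.805% of all genes. A difference between compounds in these counts was not tested.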

How the data were processed

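RNA-seq values of 38 samples came from 15 tables on a log2 scale, deposited by the authors and read here as a variance-stabilizing transform of scaled counts. RSEM and DESeq, without versions, and hg38 are named per the submitters' processing notes. Undoing the transform gave normalized counts. Tables sharing DMSO libraries were then put on 1 scale, with a single factor each for T47D or BT-549 and a factor for every gene for T47D-TR, where following the same transform is an assumption.

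limma 3.58.1 (R 4.3.3) compared compounds with DMSO within a table, using its trend and robust options for empirical Bayes. Genes had to exceed the lowest log2 value by over 1 unit in 2 libraries or more. A gene could meet this through its compound libraries alone and could then be called only higher. Likewise, a gene that met it through its DMSO libraries alone could be called only lower. The deposited scale compresses differences of low genes. Pairs of compounds were fitted on log2(normalized count + 1) over all libraries of a line and time, for genes reaching 10 normalized counts in 2 libraries or more. Tests were two-sided, with Benjamini-Hochberg adjustment over all tested genes and a threshold of 0.05. The fits were tested on simulated data.

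The members, the lists and the rules for naming genes were chosen with earlier results of these data known. From each list the text names up to 2 genes that rose most and up to 2 that fell most past the threshold with MS177 in T47D-TR or BT-549 and with MS8815, and the 3 genes most like each member. STC2 in BT-549 and the genes named in T47D were picked after their values were seen. Alternatives changed the scale, filter, scaling, empirical Bayes settings, replicate block and libraries used. A planned comparison of protein sequences was not run here.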

Additional observations from a re-analysis of the deposited data

Results flagged for a closer look

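In 4 cases all libraries of a compound lay above DMSO in 1 line and below it in another, and none of these differences between lines was tested. How many of all genes do the same was not counted, so the 4 cases are not read as opposite responses. INHBB with MS177 had a ratio of mean normalized counts to DMSO of 2.472 in BT-549, where it is scarce, and 0.7802 in T47D. INHBB with MS177-N1 had a ratio of 1.419 in BT-549 and 0.9573 in T47D, where MS177-N1 is 1 library. FSTL3 with MS177-N2 had a ratio of 1.344 in BT-549 and 0.9218 in T47D. INHBA with MS177-N1 had a ratio of 1.987 in T47D-TR and 0.8794 in T47D, again 1 library.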

How the results depend on the processing

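Pairs with a degrader kept 9 calls in T47D-TR at 48 h under every alternative run and 12 or 13 in BT-549, and no result changed sign. The 8 T47D calls were 2 with the compared libraries alone and 4 to 17 with 1 library left out, and the other T47D pairs, with 0 calls, had 2 with the compared libraries alone. The 2 calls at 30 h were 0 on the deposited log2 values and 0 to 2 with 1 library left out, and the other 30 h pairs had 0 to 1. The 1 call each among other pairs of BT-549 and T47D-TR at 48 h was 0 on the deposited log2 values, and with 1 library left out 0 to 1 in BT-549 and 0 in T47D-TR.

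Against DMSO, members past the threshold were 4 in T47D-TR at 48 h (2 to 4 with 1 library left out), 1 at 30 h (1 to 7) and 0 in T47D (3 to 5, and 3 with all libraries in 1 fit). Pathway genes past the threshold with MS177 in T47D were 0, against 38 with all libraries and 3 to 89 with 1 left out, and with MS8815 15, against 1 and 3 to 58. A lone library left in a group is assumed to vary like the others. Fits with all libraries in 1, and those without the MS8815-N library that stands apart, were chosen after seeing the data.

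The replicate numbers do not pair samples by the labels, and deviations of same-numbered libraries correlated at -0.72 to 0.73 over 11 comparisons. With the replicate block, T47D had 3 members and 13 pathway genes past the threshold against DMSO, and the other T47D-TR pairs at 48 h had 0. No paired analysis was possible because the numbers differ, for 30 h compounds against DMSO, or because 1 library remained, for MS177-N1 in T47D.

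Depth is known for T47D and BT-549 alone, and levels near or under 10 normalized counts set the width of the INHBE, INHBA and FST ratios.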
